A study of Mus musculus with 149 samples.

Results

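C1q is the recognition protein of the classical complement pathway, and the genes followed here encode its A, B and C chains: C1qa, C1qb and C1qc. They were read by 5 of the 26166 probe sets on the arrays, and they are 3 of the 13494 genes measured. The members are the probe sets whose platform annotation names only that gene, and each gene is represented by its probe set with the highest mean. These are 1417381_at for C1qa, 1437726_x_at for C1qb and 1449401_at for C1qc. C1qb had 2 further probe sets, 1434366_x_at and 1417063_at, which served as a check. The 149 arrays come from lungs of BALB/c mice, with an animal ID of its own in the labels of each array. Mice were sensitized with OVA (ovalbumin) or were naive, and received saline, a buffer of 0.1% MSA, or the epithelial cytokine TSLP (thymic stromal lymphopoietin) at 150, 500 or 1500 ng. Lungs were collected 24 or 6 h after that challenge. The labels do not spell out MSA. Of the 20 groups, 12 have 8 arrays, 5 have 7 and 3 have 6.

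In the C1 complex, C1q binds antibody on a target and switches on the proteases C1r and C1s, which cleave C4 and C2 and lead on to C3. C1q also binds dying cells and helps phagocytes to take them up. Most complement proteins of the blood come from the liver, whereas C1q comes mainly from macrophages and dendritic cells, and in the lung C1q transcripts are known as markers of interstitial macrophages. The arrays measured whole lung, so a change in the number of cells of a type and a change in RNA per cell cannot be told apart in any value below.

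The 3 genes lie beside each other on mouse chromosome 4, in the order C1qb, C1qc, C1qa, with no other gene of the RefSeq table between them. Promoter sequence was held for 2 of the 3, C1qb and C1qc, whose levels moved most closely together (below). The stretches shown run from 250 to 23 bases before the RefSeq gene start (GRCm38.p6, minus strand, chr4:136886223-136886450 for C1qb and chr4:136892937-136893164 for C1qc). They are printed 5′ to 3′ on the gene's strand, with capitals at GGAA, the core of ETS factor sites such as those of the macrophage factor PU.1, and at TGCTGA, the core of the Maf recognition element. GGAA on the other strand reads TTCC.
C1qb: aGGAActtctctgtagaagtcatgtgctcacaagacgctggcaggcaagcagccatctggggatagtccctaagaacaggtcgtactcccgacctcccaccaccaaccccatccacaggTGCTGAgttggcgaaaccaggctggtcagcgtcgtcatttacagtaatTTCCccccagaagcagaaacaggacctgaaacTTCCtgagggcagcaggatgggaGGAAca
C1qc: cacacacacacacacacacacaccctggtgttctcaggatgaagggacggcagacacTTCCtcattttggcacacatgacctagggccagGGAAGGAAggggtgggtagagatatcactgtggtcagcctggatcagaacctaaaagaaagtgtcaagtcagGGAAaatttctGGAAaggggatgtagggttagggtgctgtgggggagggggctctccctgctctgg
On both strands together GGAA occurred 4 times in the C1qb stretch and 5 times in the C1qc stretch, and 91.7% of all 32851 promoter stretches of that length hold it. TGCTGA occurred 1 time in C1qb, 131 bases before the start, and 0 times in C1qc, and 14.8% of all stretches hold it. The letters TATAAA of a TATA box were in neither stretch and in 11.6% of all. The 3 motifs were searched separately, and no match overlapped another, though 2 GGAA adjoin in C1qc.

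C1q transcripts were higher in OVA lungs than in naive lungs. At 24 h, averaged over the 5 challenges, C1qa was higher by 1.18 (SE 0.125, adjusted p = 2.25e-15), C1qb by 0.54 (SE 0.0341, adjusted p = 1.18e-29) and C1qc by 1.09 (SE 0.0708, adjusted p = 6.23e-29) on the log2 scale, that is 2.27, 1.45 and 2.13-fold. At 6 h the same differences were 0.64 (SE 0.121, adjusted p = 1.94e-06) for C1qa, 0.44 (SE 0.033, adjusted p = 1.21e-23) for C1qb and 0.80 (SE 0.0683, adjusted p = 2.6e-20) for C1qc. Of all genes tested, 28.5% rose in this comparison at 24 h and 27.6% at 6 h. All 3 chains passed at both times. The median difference over all genes was -0.02 at 24 h and -0.01 at 6 h. Here and below, a standard error (SE) or adjusted p with no other test named is limma's, adjusted by Benjamini-Hochberg over the 13494 genes, and 0.05 is the threshold. The levels are log2 values made by RMA, and a level is compared between groups for the same probe set only.

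**Figure D1:**
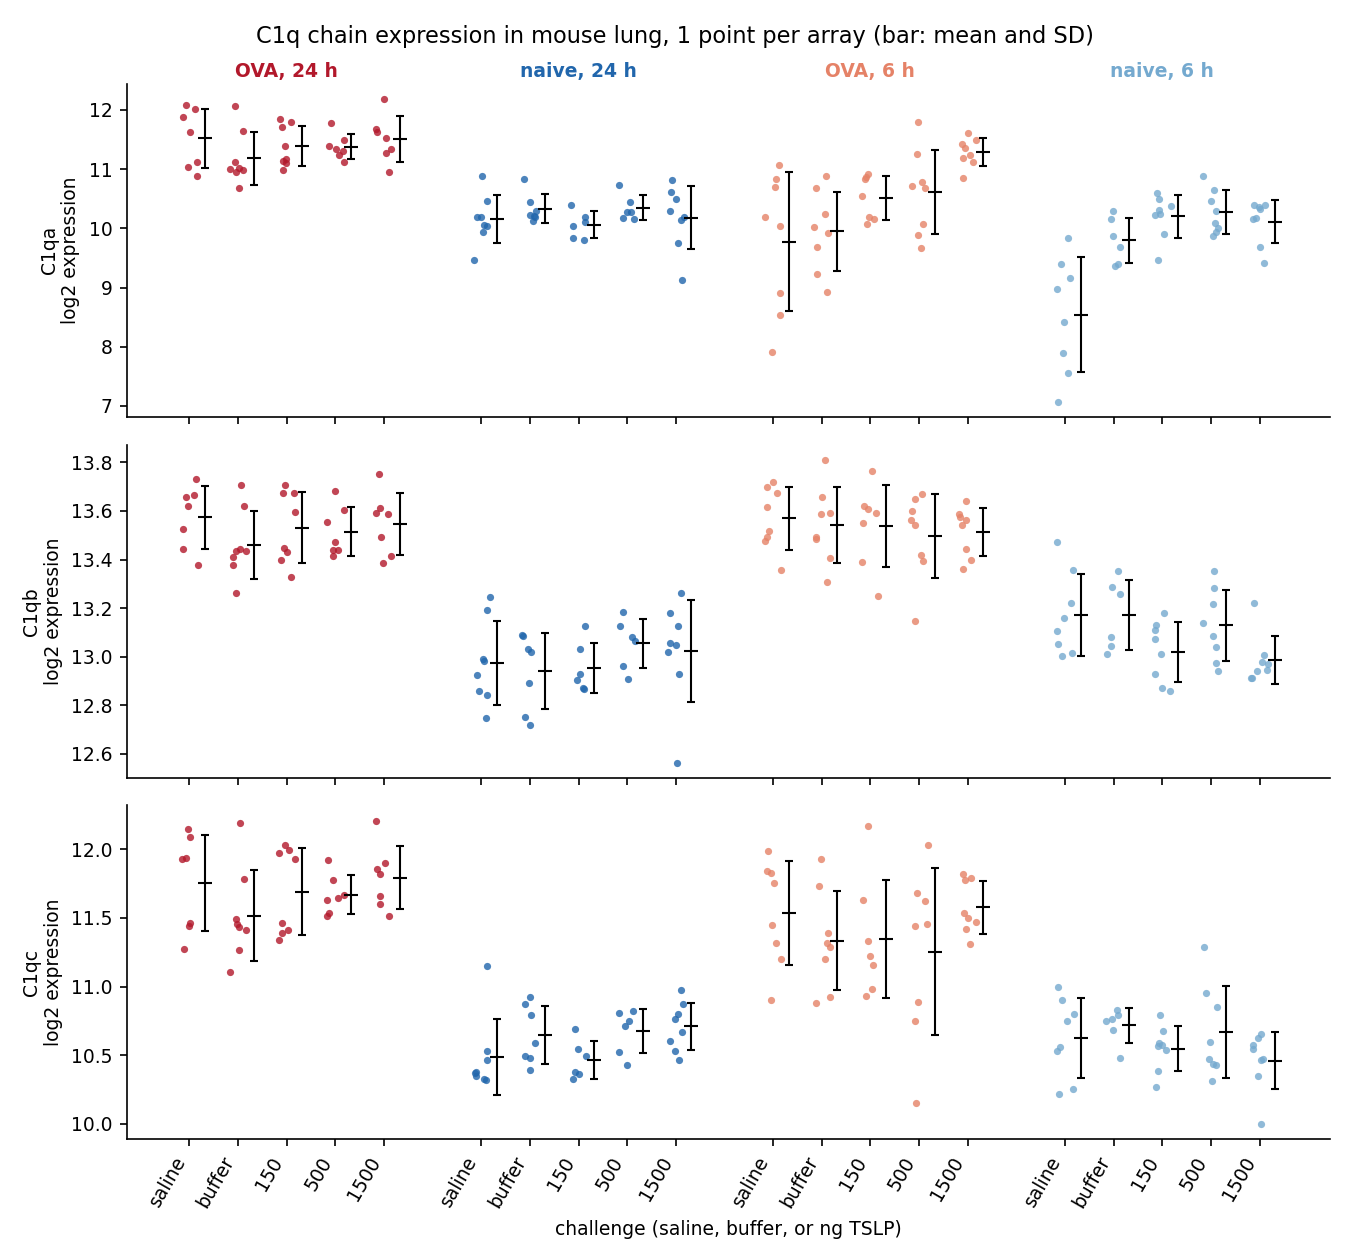
Log2 expression of C1qa, C1qb and C1qc, 1 point per array, with the mean and SD of each group as a bar beside its points. Groups run from saline through buffer to 1500 ng TSLP within OVA 24 h, naive 24 h, OVA 6 h and naive 6 h. At 24 h all 37 OVA arrays lie above all 35 naive arrays for C1qb, and C1qa spreads most widely in the saline groups at 6 h.

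At 24 h the C chain gene C1qc separated OVA from naive lungs after every challenge. After saline, C1qc was at 11.27, 11.92 and 12.14 log2 units (lowest, median and highest) in 7 OVA lungs, against 10.32, 10.37 and 11.15 in 8 naive lungs. After buffer, C1qc was at 11.11, 11.44 and 12.19 in 8 OVA lungs, against 10.39, 10.59 and 10.92 in 7 naive lungs. The lowest OVA lung lay above the highest naive lung in the buffer groups, and in the saline groups as well, where 1 naive lung (11.15) stood well above the other 7. After 150 ng TSLP, C1qc was at 11.34, 11.69 and 12.03 in 8 OVA lungs, against 10.33, 10.44 and 10.69 in 6 naive lungs. After 500 ng TSLP, C1qc was at 11.51, 11.64 and 11.92 in 7 OVA lungs, against 10.43, 10.73 and 10.82 in 6 naive lungs. After 1500 ng TSLP, C1qc was at 11.51, 11.82 and 12.21 in 7 OVA lungs, against 10.47, 10.72 and 10.97 in 8 naive lungs. No OVA group overlapped its naive group. The differences in the 5 comparisons ran from 0.87 in buffer to 1.27 after saline, with adjusted p from 5.41e-11 to 3.77e-05. Pooled over challenge, 36 of 37 OVA arrays were above the highest of the 35 naive arrays.

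At 6 h C1qc again rose in all 5 comparisons. After saline, C1qc was at 10.90, 11.60 and 11.99 in 8 OVA lungs, against 10.22, 10.65 and 11 in 8 naive lungs. After buffer, C1qc was at 10.88, 11.30 and 11.93 in 8 OVA lungs, against 10.48, 10.76 and 10.83 in 6 naive lungs. The saline groups overlapped and the buffer groups did not. After 150 ng TSLP, C1qc was at 10.93, 11.22 and 12.17 in 7 OVA lungs, against 10.27, 10.57 and 10.79 in 8 naive lungs. After 500 ng TSLP, C1qc was at 10.15, 11.45 and 12.03 in 8 OVA lungs, against 10.31, 10.53 and 11.29 in 8 naive lungs. After 1500 ng TSLP, C1qc was at 11.31, 11.52 and 11.82 in 8 OVA lungs, against 10, 10.51 and 10.66 in 8 naive lungs. The groups overlapped after 500 ng, where 1 OVA lung reached only 10.15, and lay apart after 150 and 1500 ng. The differences ran from 0.59 after 500 ng to 1.12 after 1500 ng, with adjusted p from 1.19e-09 to 0.00166.

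The B chain gene C1qb showed the same separation over a narrower range of values. After saline, C1qb was at 13.38, 13.62 and 13.73 in 7 OVA lungs, against 12.75, 12.96 and 13.25 in 8 naive lungs. After buffer, C1qb was at 13.26, 13.44 and 13.70 in 8 OVA lungs, against 12.72, 13.02 and 13.09 in 7 naive lungs. In both pairs of groups every OVA lung lay above every naive lung. After 150 ng TSLP, C1qb was at 13.33, 13.52 and 13.71 in 8 OVA lungs, against 12.87, 12.92 and 13.13 in 6 naive lungs. After 500 ng TSLP, C1qb was at 13.41, 13.47 and 13.68 in 7 OVA lungs, against 12.91, 13.07 and 13.19 in 6 naive lungs. After 1500 ng TSLP, C1qb was at 13.38, 13.59 and 13.75 in 7 OVA lungs, against 12.56, 13.05 and 13.26 in 8 naive lungs. These groups did not overlap either, and 1 naive lung after 1500 ng had the lowest C1qb value of the study (12.56). The 5 differences at 24 h were between 0.46 and 0.60, with adjusted p from 9.62e-11 to 2.99e-06. At 6 h they were between 0.37 and 0.53, with adjusted p from 2.37e-09 to 0.000101. OVA group medians at 6 h lay between 13.54 and 13.59, and naive group medians between 12.96 and 13.17. The groups overlapped at 6 h in saline, buffer and 500 ng TSLP, and lay apart after 150 and 1500 ng.

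The probe sets of C1qb gave differences of unequal size. For 1417063_at, the OVA minus naive difference averaged over the 5 challenges was 1.15 (SE 0.0745) at 24 h and 0.91 (SE 0.0719) at 6 h. For 1434366_x_at it was 0.52 (SE 0.0359) at 24 h and 0.44 (SE 0.0347) at 6 h, close to the values of 1437726_x_at. The 2.22-fold difference at 24 h from 1417063_at was near that of C1qc (2.13-fold). All 3 probe sets passed at both times (adjusted p between 1.82e-29 and 4.04e-22, adjusted over all probe sets), so the direction does not rest on the choice and the size does.

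The A chain gene C1qa rose in OVA lungs at 24 h and varied most at 6 h. After saline, C1qa was at 10.89, 11.62 and 12.09 in 7 OVA lungs, against 9.47, 10.12 and 10.88 in 8 naive lungs. After buffer, C1qa was at 10.68, 11.01 and 12.07 in 8 OVA lungs, against 10.12, 10.22 and 10.84 in 7 naive lungs. The groups did not overlap after saline, and after buffer the lowest OVA lung fell below the highest naive lung. After 150 ng TSLP, C1qa was at 10.98, 11.29 and 11.85 in 8 OVA lungs, against 9.80, 10.08 and 10.40 in 6 naive lungs. After 500 ng TSLP, C1qa was at 11.12, 11.34 and 11.79 in 7 OVA lungs, against 10.17, 10.28 and 10.73 in 6 naive lungs. After 1500 ng TSLP, C1qa was at 10.94, 11.53 and 12.19 in 7 OVA lungs, against 9.14, 10.24 and 10.81 in 8 naive lungs. All of these TSLP groups lay apart. The differences ran from 0.85 in buffer (adjusted p = 0.0325) to 1.37 after saline (adjusted p = 2.97e-05). The buffer difference lost its call in 6 of 15 fits that left out 1 array, with values from 0.73 to 0.94. It was 0.83 (adjusted p = 0.0514) without the 6 arrays that carried keratins of gullet epithelium (Krt4 and Krt13 over 2 log2 units above their medians), 1 of which is in the naive buffer 24 h group.

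At 6 h C1qa passed in 2 of 5 comparisons. After saline, C1qa was at 7.92, 10.11 and 11.07 in 8 OVA lungs, against 7.07, 8.69 and 9.85 in 8 naive lungs. After buffer, C1qa was at 8.93, 9.97 and 10.89 in 8 OVA lungs, against 9.36, 9.78 and 10.29 in 6 naive lungs. Saline groups spread over several log2 units and overlapped, as did the buffer groups, whose medians lay close together. After 150 ng TSLP, C1qa was at 10.08, 10.54 and 10.92 in 7 OVA lungs, against 9.47, 10.27 and 10.59 in 8 naive lungs. After 500 ng TSLP, C1qa was at 9.66, 10.70 and 11.79 in 8 OVA lungs, against 9.87, 10.19 and 10.88 in 8 naive lungs. After 1500 ng TSLP, C1qa was at 10.85, 11.29 and 11.61 in 8 OVA lungs, against 9.41, 10.25 and 10.40 in 8 naive lungs. The groups lay apart only after 1500 ng. The difference passed after saline (1.23, adjusted p = 0.000205) and after 1500 ng (1.17, adjusted p = 0.000143). It did not in buffer (0.16, 95% interval -0.41 to 0.72), after 150 ng (0.31, -0.23 to 0.85) or after 500 ng (0.33, -0.19 to 0.85). In these 3 comparisons the beta-actin 3′ minus 5′ difference, described below, was higher in OVA lungs by 0.44, 0.64 and 0.35 (exact permutation tests, adjusted p = 0.0257, 0.00509 and 0.0423). With it as a covariate the C1qa differences were 0.62 (adjusted p = 0.0611), 0.99 (adjusted p = 0.00236) and 0.71 (adjusted p = 0.0206). After 1500 ng the beta-actin difference was lower in OVA lungs (1.26 ± 0.125 against 1.61 ± 0.26 in naive lungs, SD, n = 8 each; exact permutation test, adjusted p = 0.0117), and C1qa was at 0.80 (adjusted p = 0.0036) with the covariate. After saline the beta-actin difference was 2.45 ± 0.217 in OVA lungs and 2.42 ± 0.512 in naive lungs (SD, n = 8 each), and C1qa was at 1.26 (adjusted p = 1e-05) with the covariate.

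Over the 10 comparisons of OVA with naive lungs at 1 challenge and time, 27 of 30 tests of a chain were rises and 0 were falls. C1qb and C1qc rose in 10 of 10 and C1qa in 7 of 10. Among all genes the share that rose was between 5.03% (buffer, 24 h) and 23.6% (150 ng TSLP, 6 h). At 24 h that share was 14% in saline, 5.03% in buffer, and 17.2%, 16.8% and 19.7% at 150, 500 and 1500 ng. At 6 h it was 10.9% in saline, 15.7% in buffer, and 23.6%, 18.3% and 17.1% at 150, 500 and 1500 ng. Every OVA array was above every naive array in 20 of the 30 tests: 5 for C1qa, 7 for C1qb and 8 for C1qc. Of all genes, 5.65% were separated in this way in saline at 24 h, 1.01% in buffer, and 6.74%, 7.83% and 5.94% at 150, 500 and 1500 ng. At 6 h the shares were 1.19% in saline, 1.99% in buffer, and 4.52%, 1.27% and 3.96% at the 3 doses. With the beta-actin difference as a covariate 29 of 30 tests were rises, and without the arrays that carried gullet keratins 26 of 30. The shares of all genes above are from the fit without either change and do not apply to these counts. The counts of 29 and 26 are therefore not a measure of a stronger or weaker C1q difference than 27.

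**Figure D2:**
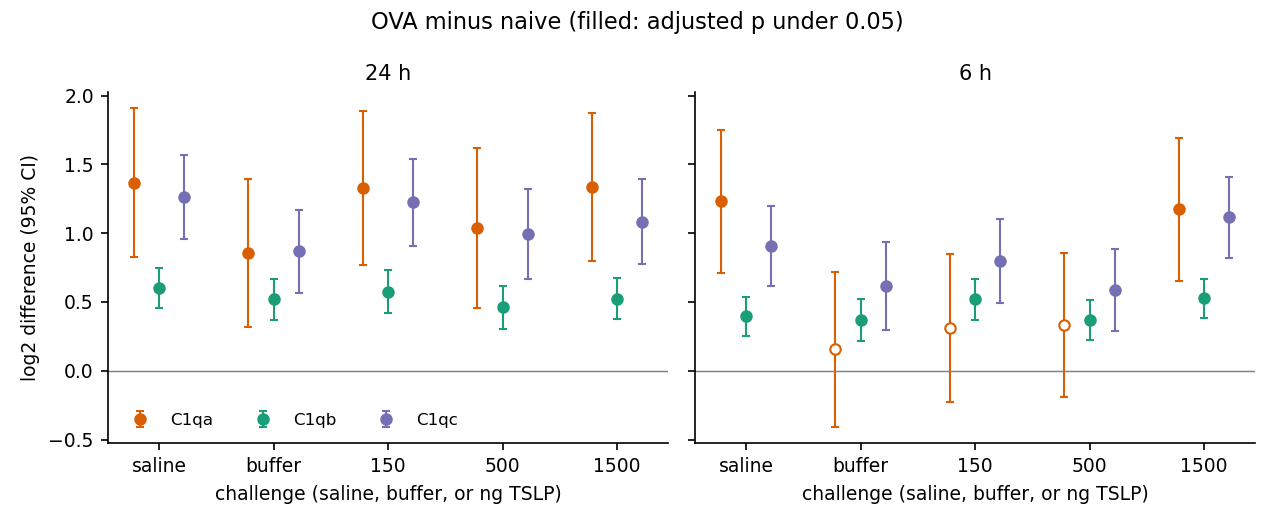
OVA minus naive difference (log2, with 95% confidence interval) of C1qa, C1qb and C1qc after each challenge, at 24 h on the left and 6 h on the right. Filled points have an adjusted p under 0.05: all 15 at 24 h, and all at 6 h except C1qa in buffer and after 150 and 500 ng TSLP.

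In order of level, the 10 OVA groups stood above the 10 naive groups for both C1qb and C1qc. For C1qb the lowest OVA group was buffer at 24 h (13.46 ± 0.139, SD, n = 8) and the highest naive group was saline at 6 h (13.17 ± 0.169, SD, n = 8). That gap of 0.29 was the only 1 of 19 between neighbouring groups that was larger than both SDs. For C1qc the lowest OVA group was 500 ng TSLP at 6 h (11.25 ± 0.609, SD, n = 8) and the highest naive group was buffer at 6 h (10.72 ± 0.127, SD, n = 6). None of the 19 neighbouring pairs of C1qc groups differed by more than the larger SD. For C1qa the order was mixed, with OVA buffer (9.95 ± 0.669, SD, n = 8) and OVA saline (9.77 ± 1.17, SD, n = 8) at 6 h among the naive groups. Naive saline at 6 h was lowest of all for C1qa (8.54 ± 0.969, SD, n = 8), 1.23 below the next group, the only gap over the larger SD. The share of variance that lay between the 20 groups was 68.8% for C1qa, 77.7% for C1qb and 75.5% for C1qc.

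Against buffer, TSLP gave 2 passing tests of a C1q chain among 36 (3 chains, 3 doses, OVA and naive, 24 and 6 h), both rises of C1qa in OVA lungs at 6 h. The shares of all genes that rose at 150, 500 and 1500 ng were 7.2%, 7.43% and 21% in OVA lungs at 24 h, and 0.0889%, 0% and 0.608% in naive lungs. At 6 h they were 0.133%, 19% and 24.8% in OVA lungs, and 11%, 15.8% and 5.53% in naive lungs. C1qa was at 9.66, 10.70 and 11.79 (lowest, median and highest) in 8 OVA lungs after 500 ng and at 10.85, 11.29 and 11.61 in 8 after 1500 ng, against 8.93, 9.97 and 10.89 in 8 after buffer. The groups overlapped at both doses, at 1500 ng by a few hundredths. The differences were 0.66 (SE 0.263, adjusted p = 0.0363) at 500 ng and 1.34 (SE 0.263, adjusted p = 5.26e-06) at 1500 ng. After 150 ng the difference was 0.56 (adjusted p = 0.432). The slope over the 3 doses was 0.76 log2 units per 10-fold dose (SE 0.273, adjusted p = 0.0142), with a rising slope in 20.9% of all genes. The 1500 ng difference was larger in OVA than in naive lungs at 6 h by 1.02 (SE 0.388, adjusted p = 0.0347), where 14% of all genes had a larger difference. It was smaller at 24 h than at 6 h in OVA lungs by 1.01 on the log2 scale (value -1.01, SE 0.379, adjusted p = 0.0164), as for 25.5% of all genes. With the beta-actin covariate described next, the value for OVA against naive was 0.18 (adjusted p = 0.795). The value for 24 h against 6 h then changed sign, from -1.01 to 0.74 (adjusted p = 0.195). Without the gullet keratin arrays the value for OVA against naive was 0.82 (adjusted p = 0.159).

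These C1qa differences came with a difference in RNA quality. Control probe sets read beta-actin near its 3′ and its 5′ end, and the log2 difference between them grows as the 5′ end is lost or poorly labelled. It averaged 1.79 ± 0.314 after 500 ng and 1.26 ± 0.125 after 1500 ng in OVA lungs at 6 h, against 2.57 ± 0.255 after buffer (SD, n = 8 each). Both doses differed from buffer (exact permutation tests, 2-sided, adjusted p = 0.00112 for each over 36 comparisons). Every array at both doses was below every buffer array in this difference, so dose and RNA quality cannot be told apart here. With this difference as a covariate C1qa was at -0.18 (SE 0.258, adjusted p = 0.729) after 500 ng and at -0.06 (SE 0.307, adjusted p = 0.924) after 1500 ng, and its dose slope was at -0.33 (adjusted p = 0.514). Without the arrays that carried gullet keratins (1 in OVA buffer and 1 in OVA 1500 ng at 6 h) it was at 0.51 (adjusted p = 0.127) after 500 ng and at 1.2 (adjusted p = 0.00012) after 1500 ng.

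C1qb and C1qc passed at no dose, time or sensitization against buffer. At 24 h in OVA lungs, 1500 ng TSLP changed 38.5% of all genes, and C1qa was at 0.33 (95% interval -0.21 to 0.87), C1qb at 0.09 (-0.06 to 0.23) and C1qc at 0.28 (-0.03 to 0.58). Over all 12 dose comparisons the 95% intervals of C1qb lay between -0.34 and 0.27, and those of C1qc between -0.57 and 0.58. In naive lungs at 6 h the C1qb difference at 1500 ng was -0.19 (SE 0.0778, adjusted p = 0.0836). Without the gullet keratin arrays it was -0.25 (adjusted p = 0.0261), and at 150 ng -0.23 (adjusted p = 0.0343). The naive buffer 6 h group holds 2 of those arrays. The shares of all genes given for TSLP against buffer are from the fit without the beta-actin covariate. With the covariate neither rise of C1qa at 6 h passed, and 1 other of the 36 tests did, C1qa at 1500 ng in OVA lungs at 24 h (0.67, SE 0.241, adjusted p = 0.0232). There the beta-actin difference was 1.6 ± 0.23 (SD, n = 7) after TSLP against 1.28 ± 0.0957 (SD, n = 8) after buffer. Every TSLP array was above every buffer array in it, so dose and RNA quality cannot be told apart there either.

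**Figure D3:**
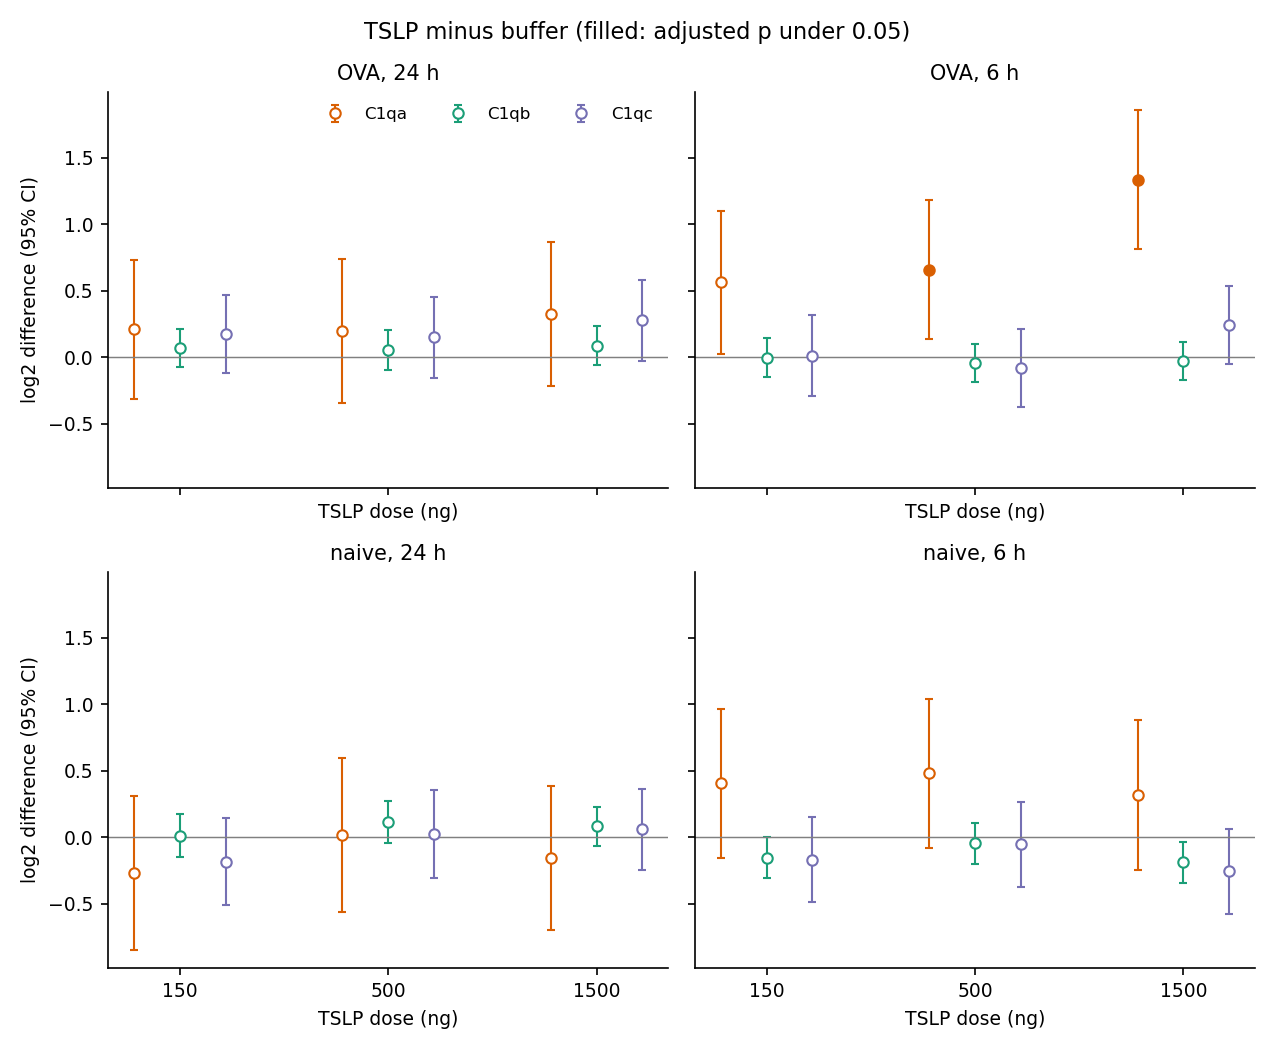
TSLP minus buffer difference (log2, with 95% confidence interval) of C1qa, C1qb and C1qc at 150, 500 and 1500 ng, in OVA lungs (upper panels) and naive lungs (lower panels), at 24 h (left) and 6 h (right). The 2 filled points, with an adjusted p under 0.05, are C1qa at 500 and 1500 ng in OVA lungs at 6 h.

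Buffer against saline gave 1 rise in 12 tests. C1qa was at 9.36, 9.78 and 10.29 (lowest, median and highest) in 6 naive lungs after buffer at 6 h, against 7.07, 8.69 and 9.85 in 8 after saline. The groups overlapped, and all 6 buffer lungs were above the saline mean. The difference was 1.25 (SE 0.285, adjusted p = 0.0011), in a comparison where 8.09% of all genes rose. In OVA lungs at 6 h that share was 0.126%, and at 24 h it was 0.245% in OVA and 0.00741% in naive lungs. With the beta-actin covariate it was 0.95 (adjusted p = 0.00718), and without the gullet keratin arrays 1.19 (adjusted p = 0.0105). The beta-actin difference was 2.14 ± 0.306 (n = 6) after buffer and 2.42 ± 0.512 (n = 8) after saline (SD; exact permutation test, adjusted p = 0.4).

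Between times, C1qa was higher at 24 h than at 6 h in 5 of 10 comparisons, and C1qb was lower in 2. In OVA lungs C1qa rose by 1.75 (SE 0.273) after saline, 1.23 (SE 0.263) after buffer, 0.88 (SE 0.273) after 150 ng and 0.77 (SE 0.273) after 500 ng, with adjusted p from 1.66e-08 to 0.0421. The shares of all genes that rose were 25.3%, 26%, 21.1% and 4.94% in these comparisons. In naive lungs it rose after saline alone among the 5 challenges (1.61, SE 0.263, adjusted p = 6.68e-08), where 25.1% of all genes rose. C1qb fell by 0.20 (SE 0.072, adjusted p = 0.0122) after saline and by 0.23 (SE 0.0801, adjusted p = 0.0119) after buffer in naive lungs, where 36.1% and 31.5% of all genes fell. No single comparison passed for C1qc. The other 4 comparisons, in which no chain passed, were 150, 500 and 1500 ng in naive lungs and 1500 ng in OVA lungs, where 13.8%, 2.21%, 11.1% and 30.8% of all genes changed. Averaged over the 5 challenges in OVA lungs, C1qa was higher at 24 h by 0.97 (SE 0.121, adjusted p = 4.55e-12), where 29.2% of all genes rose. C1qc was higher by 0.28 (SE 0.0686, adjusted p = 0.000219) in OVA lungs and was at -0.01 (SE 0.0705) in naive lungs. The naive average was 0.43 (SE 0.124, adjusted p = 0.00153) for C1qa and -0.11 (SE 0.034, adjusted p = 0.00406) for C1qb, where 27.7% of all genes rose and 38.9% fell.

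The beta-actin difference also moved with time. Group means were between 1.25 and 1.6 at 24 h. At 6 h they were 2.45 after saline, 2.57 after buffer and 2.29, 1.79 and 1.26 after 150, 500 and 1500 ng TSLP in OVA lungs. In naive lungs they were 2.42 after saline, 2.14 after buffer and 1.64, 1.44 and 1.61 after the 3 doses. The direction between times was not the same in every group: the mean was lower at 24 h by 0.89 or more on the log2 scale after saline and buffer, and higher by 0.34 after 1500 ng in OVA lungs (exact permutation test, adjusted p = 0.0036). The 24 h minus 6 h difference was -0.14 (adjusted p = 0.251) after 500 ng and -0.04 (adjusted p = 0.883) after 1500 ng in naive lungs. After saline, buffer and 150 ng in OVA lungs, and after buffer in naive lungs, the beta-actin difference was lower in every 24 h array than every 6 h array. After saline in naive lungs the highest 24 h array (1.914) barely reached the lowest 6 h array (1.913). Time and RNA quality cannot be told apart in these groups. The shares of all genes given above for times are from the fit without the beta-actin covariate. With the covariate none of the 30 tests between times passed in either direction. The difference averaged over challenges was then 0.24 for C1qa and 0.15 for C1qc in OVA lungs, and -0.08 for C1qa and -0.03 for C1qb in naive lungs. Over the 149 arrays, after subtracting group means, the beta-actin difference correlated with C1qa at r = -0.512, with C1qb at 0.289 and with C1qc at -0.15. These points share arrays and 1 normalization, and the values are a description.

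**Figure D4:**
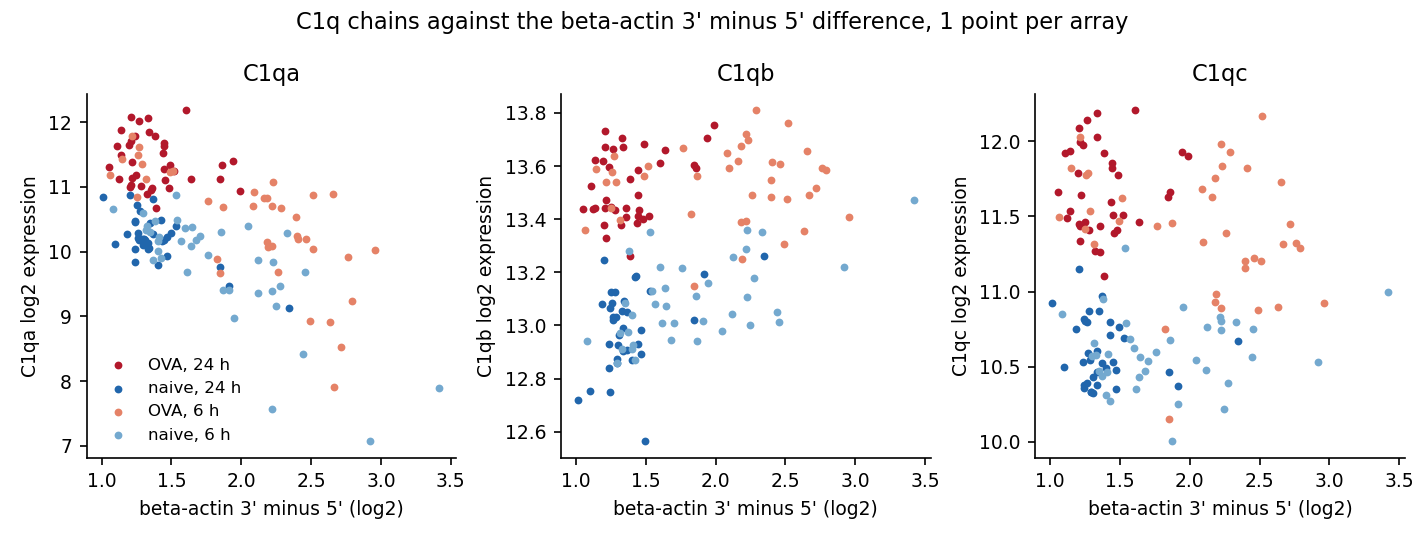
Log2 expression of C1qa, C1qb and C1qc against the beta-actin 3′ minus 5′ difference (log2), 1 point per array, coloured by sensitization and time. The C1qa points below 9 all have a beta-actin difference above 1.9. In the C1qb panel all 37 OVA arrays at 24 h lie above all 35 naive arrays at 24 h.

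The OVA minus naive difference was itself larger at 24 h than at 6 h for C1qa by 0.54 (SE 0.174, adjusted p = 0.046), where 3.44% of all genes had a larger difference. For C1qb this change was 0.10 (adjusted p = 0.204) and for C1qc 0.28 (adjusted p = 0.071). The C1qa value did not pass with the beta-actin covariate (0.32, adjusted p = 0.209), without the gullet keratin arrays (0.48, adjusted p = 0.0936), with quantile normalization (0.52, adjusted p = 0.0602) or with adjustment over every probe set (0.54, adjusted p = 0.0543).

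The chains did not move together to the same degree. Over the 20 group means C1qb and C1qc correlated at r = 0.953, C1qa and C1qc at 0.705, and C1qa and C1qb at 0.525. Within groups, over the 149 arrays, the values were 0.674, 0.632 and 0.321. With 1417063_at in place of 1437726_x_at, C1qb and C1qc correlated at 0.976 over group means and at 0.854 within groups. For C1qa and C1qb these values were 0.632 and 0.556 with 1417063_at, and 0.542 and 0.301 with 1434366_x_at. The pairs share arrays and a normalization, so these are descriptions. The mean of the 3 chains was taken without scaling. Within groups it correlated with C1qa at 0.916, C1qc at 0.875 and C1qb at 0.617. The genes most like the mean of the 3 chains within groups were Hexa (r = 0.785), a lysosomal hexosaminidase, Trem2 (0.779), a lipid receptor of macrophages, H2-Aa (0.757), a class II antigen presentation chain, and C3ar1 (0.744), the receptor for C3a. Then came Igf1, Slc7a8, Fcgr2b, H2-DMa, Man1a and Slamf9, the last at 0.715. Over the 20 group means the order was Kcnj15 (r = 0.973), a potassium channel, Ube2c, Elf3, Dbf4, Man1a, Mgl2, Jchain, Rgs5, Gatm and an immunoglobulin kappa variable gene (0.96). Man1a alone was in both lists of 10. Over group means 663 genes had r above 0.8, and within groups 0 did.

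Genes of the complement pathway beyond C1q were followed in the OVA minus naive comparison averaged over challenges. At 24 h 61.7% of all genes passed there, 28.5% as rises and 33.2% as falls, so a list with shares near these is not set apart by its counts. The C1 inhibitor gene Serping1 fell by 0.15 (SE 0.0185) and was the only 1 of 5 genes for C1 proteases and their inhibitor that was measured. Of 12 genes listed for the classical and lectin pathways from C4 to C3, 7 were measured, and C4a, C4b and C3 were not. Of the 7 measured, 3 rose and 0 fell. They were the lectin pathway protease Masp1 (0.67, SE 0.0828), the ficolin gene Fcna (1.05, SE 0.193) and the collectin gene Colec12 (0.09, SE 0.0426), with Masp2 at 0.10 (adjusted p = 0.0853). In the alternative pathway 1 of 3 rose, the C3b-cleaving protease factor I gene Cfi (0.94, SE 0.0932), with properdin (Cfp) at -0.04 and factor B (Cfb) at 0.04. In the terminal pathway 2 of 3 rose, the C5 gene Hc (0.28, SE 0.0299) and C8g (0.12, SE 0.0446), with C8b at -0.03. The list medians were 0.10, 0.04 and 0.12 for these 3 lists and 1.09 for the C1q chains, against -0.02 for all genes.

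Of 11 complement receptors and regulators, 3 rose and 4 fell at 24 h (median -0.08), shares near those of all genes (28.5% and 33.2%). The complement receptor chain Itgax rose by 1.27 (SE 0.0694), C3ar1 by 1.02 (SE 0.0877) and the regulator Cd55 by 0.28 (SE 0.0404), while the C5a receptor gene C5ar1 fell by 0.65 (SE 0.0926). Of 6 proposed receptors and partners of C1q, 2 rose and 4 fell (median -0.14). C1qbp rose by 0.24 (SE 0.0317), while Cd93 fell by 0.16 (SE 0.0194), Megf10 by 0.50 (SE 0.0602) and Lrp1 by 0.14 (SE 0.0237). Of 6 Fc receptor genes of phagocytes, 3 rose and 1 fell. The inhibitory receptor gene Fcgr2b rose by 1.39 (SE 0.0801), Fcgr3 by 0.44 (SE 0.0495) and Fcgrt by 0.08 (SE 0.0291), and Fcgr1 fell by 0.44 (SE 0.0702). All 5 measured genes of class II antigen presentation rose (median 0.40), with H2-DMa at 0.52 (SE 0.0428), Ciita at 0.64 (SE 0.0601), H2-Ab1 at 0.36 (SE 0.026) and Cd74 at 0.17 (SE 0.0133). At 6 h, where 27.6% of all genes rose and 33.6% fell, the counts were 3 rises and 4 falls of 11 receptors and regulators, 2 and 4 of 6 proposed receptors, and 5 rises of 5 class II genes.

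**Figure D5:**
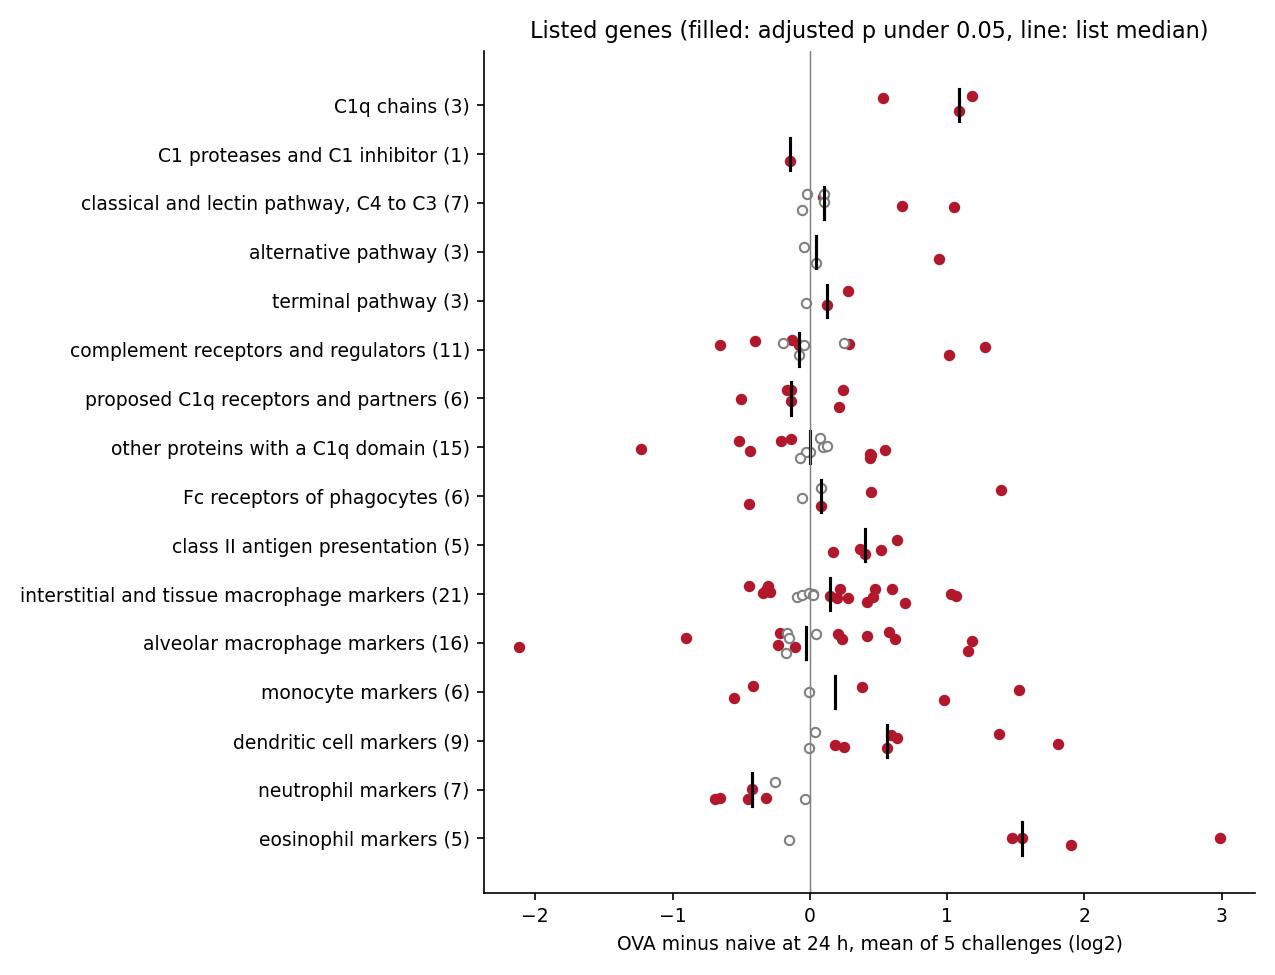
OVA minus naive difference at 24 h, averaged over the 5 challenges (log2), for each measured gene of 16 lists, with the number measured in parentheses. Filled points have an adjusted p under 0.05 and the vertical line is the list median, 1.09 for the C1q chains and 0.14 for interstitial and tissue macrophage markers.

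Of 21 measured markers of interstitial and tissue macrophages, 11 rose and 5 fell at 24 h, where 28.5% of all genes rose and 33.2% fell. The list median was 0.14, against -0.02 for all genes. At 6 h 10 rose and 7 fell, where 27.6% of all genes rose and 33.6% fell. Trem2 rose by 1.02 (SE 0.083), Ms4a7 by 1.06 (SE 0.0907), the mannose receptor gene Mrc1 by 0.42 (SE 0.0409) and Adgre1, which encodes F4/80, by 0.60 (SE 0.0681). Other markers on this list were divided. Folr2 (0.47, SE 0.0785) and Cd163 (0.46, SE 0.0767) rose, Cx3cr1 fell by 0.32 (SE 0.0658), and Mertk fell by 0.31 (SE 0.0358). Lyve1 (0.03), Maf (-0.05), Stab1 (0.02), Pf4 (-0.01) and Apoe (-0.09) did not pass. These further examples were named after their values were seen. The mean level of the 21 markers in an array ran from 10.70 to 11.18 in OVA lungs, against 10.59 to 10.92 in naive lungs, at 24 h. RMA values carry no detection calls and no 0, so no marker can be called absent.

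Markers of other cell types that can hold C1q transcripts, or lie in the same tissue, were read against the same shares of all genes (28.5% rose and 33.2% fell). Of 16 alveolar macrophage markers 7 rose and 5 fell at 24 h, with Chil3 at 1.18 (SE 0.0583), Ctsk at 1.15 (SE 0.0825), Slc7a2 at 0.62 (SE 0.0519) and Fabp1 at -2.11 (SE 0.145). Of 9 dendritic cell markers 7 rose and 0 fell, with Mgl2 at 1.81 (SE 0.0955), Irf4 at 1.38 (SE 0.108), Itgae at 0.64 (SE 0.0615) and Flt3 at 0.56 (SE 0.0499). The mean dendritic level in an array ran from 8.90 to 9.83 in OVA lungs, against 8.62 to 9 in naive lungs. Of 6 monocyte markers 3 rose and 2 fell, with F10 at 1.52 (SE 0.0948), Vcan at 0.98 (SE 0.0819), Treml4 at -0.55 (SE 0.0783) and Ccr2 at 0.38 (SE 0.0668). The part of these cells in the C1q difference was not tested. The label of interstitial macrophages therefore describes where C1q is known to be made, and the values here are those of whole lung.

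After 1500 ng TSLP in OVA lungs at 24 h, where no C1q chain passed, other complement genes did. Those given here were chosen after their values were seen. Mannose-binding lectin Mbl1 rose by 0.52 (SE 0.113), Masp1 by 0.78 (SE 0.181) and Cfi by 0.61 (SE 0.204), while properdin (Cfp) fell by 0.43 (SE 0.0915), C5ar1 by 0.74 (SE 0.202) and Serping1 by 0.20 (SE 0.0404). Of 21 interstitial and tissue macrophage markers 1 rose and 3 fell: Gas6 was at 0.38 (SE 0.0925), and Fcgr1 (-0.65, SE 0.153), Cd68 (-0.48, SE 0.135) and Maf (-0.37, SE 0.115) were lower. Of 16 alveolar macrophage markers 1 rose and 8 fell, with Fabp1 at -1.87 (SE 0.316), Siglecf at -0.99 (SE 0.173), Cidec at -1.97 (SE 0.364) and Abcg1 at -0.62 (SE 0.121). Here 21% of all genes rose and 17.5% fell, and the beta-actin difference was 0.32 higher after TSLP (exact permutation test, adjusted p = 0.00112).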

How the data were processed

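The deposited values are log2 expression values from the authors, who used RMA, per the submitters' processing notes. This method corrects background, normalizes between arrays and summarises probes into probe sets, so a value has no count or detection call behind it and precision rests on the number of arrays. RMA's version and the genome build were not given in the sources used here. RNA was from whole lung, with integrity numbers above 6, per the labels' protocols. Array medians were between 8.968 and 9.164, and 0 pairs of arrays were identical.

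Probe sets were named by the platform annotation (22892 name 1 gene, 260 several, and 3014 were unlisted), and each of 13494 genes took its probe set with the highest mean. limma 3.58.1 in R 4.3.3 fitted 1 mean per group over the 149 arrays (residual df 129), with no filter, and tested 51 contrasts, both sides, with Benjamini-Hochberg adjustment over genes per contrast. The code was tested on simulated data. The dose slope weights the means of the 3 TSLP groups by log10 of the dose.

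The members, the 20 gene lists and the tests were chosen with earlier results of these data known. All 3 members were named. In each list described, the 4 genes with the smallest p were named (the squamous gullet list, where none passed, and complement lists after 1500 ng TSLP excepted), and of genes like C1q in pattern, the 10 with the highest Pearson r by each measure, with predicted genes skipped. Animal numbers recur between groups, and arrays were treated as unpaired. Over 36 comparisons the mean correlation of same-number pairs ran from -0.166 to 0.151, with an average of 0.00433. In 0 of the 36 did every such pair correlate above 0.1. The 6 arrays with gullet keratins had Krt4 and Krt13 over 2 log2 units above their medians. Alternatives were other probe sets, all probe sets averaged or tested singly, quantile normalization, a trended robust prior, array weights, no dim genes, compared groups alone, saline for buffer, the replicate block, 1 array left out and the beta-actin covariate. Counts over all comparisons with the covariate or without gullet arrays, and the settings of the 3 differences of differences, were added after seeing the data.

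Promoter sequences are RefSeq's on GRCm38.p6, and 2 of 3 members matched.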

Additional observations from a re-analysis of the deposited data

Results flagged for a closer look

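Of the 60 sets of values tested (3 chains in 20 groups), 3 held an array far from the rest, and chance alone flags about 1 in 20. C1qb in naive lungs 6 h after 1500 ng TSLP was at 13.22 in replicate 1, against 12.91 to 13.01 in the other arrays. C1qc in the same group was at 10 in replicate 7, against 10.35 to 10.66 in the others. C1qc in naive lungs 24 h after saline was at 11.15 in replicate 1, against 10.32 to 10.53 in the others.

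In 3 cases a C1qa difference varied between conditions by its own limma test. The 1500 ng TSLP minus buffer difference at 6 h was larger in OVA than in naive lungs by 1.017 (SE 0.388, adjusted p = 0.0347). It was 0.18 (adjusted p = 0.795) with the beta-actin covariate and 0.82 (adjusted p = 0.159) without the gullet keratin arrays. The same difference in OVA lungs was at -1.01 for 24 h minus 6 h (SE 0.379, adjusted p = 0.0164) and at 0.74 (adjusted p = 0.195) with the covariate. The OVA minus naive difference, averaged over 5 challenges, was larger at 24 h than at 6 h by 0.5433 (SE 0.174, adjusted p = 0.046). This value did not pass with the covariate or without the gullet keratin arrays. Nor did it pass with quantile normalization, with adjustment over every probe set or with the replicate block.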

How the results depend on the processing

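For the 30 main values of the 3 chains (1500 ng TSLP against buffer, OVA against naive in buffer and over 5 challenges, 24 h against 6 h), 302 values were computed under alternatives other than leaving out 1 array. Of these, 276 kept direction and side of the threshold, 14 changed sign and passed in neither fit, 5 lost their call and 5 gained one. The other 2, both C1qa with the beta-actin covariate, lost their call with a change of sign (adjusted p = 0.924 and 0.62). With the beta-actin covariate C1qa was at -0.06371 for 1500 ng in OVA lungs at 6 h, at 0.6715 (gained) for 1500 ng in OVA lungs at 24 h, and at -0.08399 (naive) and 0.2409 (OVA) for 24 h minus 6 h. C1qb was then at -0.02783 (naive) and C1qc at 0.1547 (OVA) for 24 h minus 6 h, and the change of the 1500 ng effect of C1qa with time in OVA lungs was 0.7352. Probe set 1417063_at gave C1qb -0.1309 (lost) for 24 h minus 6 h in naive lungs, and array weights gave C1qc 0.3155 (gained) for 1500 ng in OVA lungs at 24 h. Without gullet keratin arrays C1qa was at 0.8301 for OVA minus naive in buffer at 24 h, and C1qb at -0.2493 (gained) for 1500 ng in naive lungs at 6 h. Against saline that C1qb value was -0.1873 and that of C1qa 1.574 (both gained). The larger C1qa OVA difference at 24 h than at 6 h lost its call with the covariate (0.32), without gullet arrays (0.48, adjusted p = 0.0936), with quantile normalization (0.52, adjusted p = 0.0602) with adjustment over every probe set (adjusted p = 0.0543) and with the replicate block (adjusted p = 0.0509). The cause was not tested.

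Leaving out 1 array changed 8 calls. OVA minus naive C1qa in buffer at 24 h ranged from 0.7281 (without OVA replicate 8) to 0.9398 and lost its call without OVA replicate 8 or 4 or naive replicate 8, 7, 4 or 2. C1qb at 1500 ng in naive lungs at 6 h ranged from -0.2203 to -0.151 and passed without 1500 ng replicate 1, and C1qc at 1500 ng in OVA lungs at 24 h ranged from 0.2079 to 0.3731 and passed without buffer replicate 8. With the replicate block, which pairs arrays by number only, the 30 main values kept their calls, for example 1.18 for C1qa, 0.54 for C1qb and 1.09 for C1qc in OVA minus naive over 5 challenges at 24 h.

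Counts of genes called over all genes moved over 1.5 times in 30 of 131 alternatives, 10 of them from testing every probe set. For 1500 ng in naive lungs at 6 h, 2071 genes became 3893 with array weights, 629 with the covariate, 3483 without gullet arrays, 20 in the compared groups alone and 5774 against saline. At 24 h 132 became 268, 44, 78 and 60 under the first 4 of these. For 1500 ng in OVA lungs at 6 h 8194 became 1042 with the covariate. For OVA minus naive in buffer, 1156 at 24 h became 2328 with array weights, and 4536 at 6 h became 2338 in the compared groups alone and 3016 without the dimmest 40% of genes. Over 5 challenges 8321 at 24 h and 8258 at 6 h became 5478 and 5302 without dim genes. For 24 h minus 6 h in OVA lungs 9074 became 3675 with the covariate. The 1500 ng effect at 6 h differed between OVA and naive lungs for 4291 genes, which became 967 with the covariate and 2745 without gullet arrays, and its change with time in OVA lungs, at 8117, became 3155 with the covariate. The change of the OVA effect with time, at 686, became 2420 with array weights. Of 89 such counts with 1 array left out, 12 moved over 1.5 times. For OVA minus naive in buffer at 24 h the count was 580 without OVA replicate 8 and 633 without OVA replicate 4. For 1500 ng in naive lungs at 6 h it was 3413, 1178 and 807 without buffer replicates 6, 2 and 5. At 24 h it was 57, 59, 219 and 86 without 1500 ng replicates 1, 4, 5 and 7, and 67, 54 and 87 without buffer replicates 8, 7 and 5. Testing every probe set gave between 401 and 17560 in the comparisons that had between 132 and 9074 genes.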

Other observations

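Among proteins that share the C1q domain but not the complement role, 4 of 15 measured genes rose and 5 fell in OVA minus naive lungs at 24 h over the 5 challenges (median -0.00116, against -0.02 for all genes), shares near those of all genes (28.5% and 33.2%). C1qtnf1 rose by 0.44 (SE 0.0469) and Emilin1, an extracellular matrix protein, by 0.44 (SE 0.0472), while C1qtnf2 fell by 0.52 (SE 0.0515) and C1qtnf7 by 0.44 (SE 0.0396). In the same comparison 6 of 8 B and plasma cell markers rose and 1 fell, with the IgM heavy chain gene Ighm, whose product is a ligand of C1q, at 4.63 (SE 0.156), Jchain at 2.26 (SE 0.126), Mzb1 at 2.34 (SE 0.143) and Xbp1 at 0.26 (SE 0.0337). T cell markers rose for 7 of 8 and eosinophil markers for 4 of 5, with none falling in either list. The T cell costimulator gene Icos was at 1.34 (SE 0.0947), Cd3g at 0.65 (SE 0.0761), Cd4 at 0.56 (SE 0.0671) and Cd5 at 0.74 (SE 0.0967). The eosinophil genes Alox15 (2.99, SE 0.214), Prg2 (1.91, SE 0.143), Ccr3 (1.47, SE 0.138) and Epx (1.54, SE 0.15) were higher. Neutrophil markers fell for 5 of 7 with no rise, with Mmp9 at -0.65 (SE 0.0908), S100a9 at -0.32 (SE 0.0503), Mmp8 at -0.69 (SE 0.111) and S100a8 at -0.42 (SE 0.0675). Lung epithelium markers rose for 4 and fell for 4 of 10, with Hopx at -0.24 (SE 0.0249), Sftpd at 0.15 (SE 0.015), Scgb3a2 at -0.47 (SE 0.0513) and Sftpb at -0.17 (SE 0.0195). None of 8 squamous gullet epithelium markers passed (2 rose and 1 fell without the gullet keratin arrays).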
